A study of Chimonocalamus delicatus with 27 samples.

Results

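The mevalonate pathway genes described here were 7 genes fixed by identifier in a table of 55972 genes for the growth stages and in one of 57356 genes for the plant parts. They were AAT1 (PH02Gene24433), HMGS (PH02Gene21584), a pair of HMGR genes (PH02Gene25183 and PH02Gene07047), the mevalonate kinase At5g27450 (PH02Gene01687) and a pair of MVD2 genes (PH02Gene06879 and PH02Gene20453). All 7 were found in both tables, and all 7 passed the filter on low values in both. They were not the whole pathway: 37 genes of the growth stage table and 40 of the plant part table carried a KEGG number of the pathway, and no phosphomevalonate kinase was among the 7. The symbols and descriptions in the tables were borrowed from similar genes in other species. The samples were 27 RNA sequencing libraries of Chimonocalamus delicatus, a bamboo known for its fragrant culms, with 3 libraries in each of 9 groups. The growth stage set (15 libraries) held the bamboo shoot and bamboo stems of 0.5, 1, 2 and 3 years, and the plant part set (12 libraries) held leaves, branches, stems of unstated age (called the part-set stem here) and rhizomes. The labels describe no cultivar, agent or growing conditions. Nothing in them says whether replicates are different plants, and p-values therefore measure only the spread between these libraries. The comparisons bear on the question of how aroma-related genes differ with stem age and plant part, which the submitters' design text gives as the aim.

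The mevalonate pathway runs in the cytosol and endoplasmic reticulum of plant cells and turns acetyl-CoA into isopentenyl diphosphate, the building block of sterols and of most sesquiterpenes. Acetyl-CoA acetyltransferase joins acetyl-CoA units, HMG-CoA synthase adds another, and HMG-CoA reductase makes mevalonate in the step regarded as the main point of control. Mevalonate kinase and phosphomevalonate kinase then add phosphates, and diphosphomevalonate decarboxylase releases isopentenyl diphosphate. Plants also make isopentenyl diphosphate in plastids by a separate route, which is not part of this gene set.

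Libraries held 6257623 to 12422327 expected counts, and the 7 genes had 24 to 1847 expected counts in each library. The 3 libraries of the 0.5-year stem differed little (biological coefficient of variation over all genes 5.43%, against 19.9% to 59.9% in the other groups), and the rhizome spread the most, with a correlation of 0.763 between its replicates 2 and 3. Marker sums moved with the groups. Summed FPKM of 16 dividing tissue markers (the MCM2 to MCM7 genes) was 133 to 599 in the shoot and 15.4 to 33.8 in the stems. For 45 green tissue markers it was 314 to 1899 in the shoot, highest in replicate 3, then 1109 to 1175, 282 to 381, 114 to 129 and 76.5 to 227 in stems of rising age. In the plant parts the sum of 47 green tissue markers was 25.7 to 98.2 in the rhizome, 3221 to 8259 in the part-set stem, 3436 to 5448 in the branch and 30223 to 38928 in the leaf, with 11 of the genes at 0 in all rhizome libraries and 12 in those of each other part. The root endodermis list held 61 genes described as Casparian strip membrane protein or CASP-like. It summed to 162 to 285 in the rhizome, which overlapped with part-set stem (192 to 228) and branch (237 to 308). The leaf sum was 125 to 148. Secondary wall markers summed to 1227 to 1267 in the 0.5-year stem, 421 to 831 in the shoot and 289 to 488 in the older stems. The part of any of these in the results below was not tested. In bulk tissue, fewer cells of a type and less RNA per cell cannot be told apart.

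The shoot stood apart from the stems for all 7 genes. Levels are given as FPKM (fragments scaled to transcript length and to library size), and changes as log2 changes from edgeR's quasi-likelihood test on the counts, called at an adjusted p under 0.05. In FPKM, 6 genes were lower in all 12 stem libraries than in any shoot library, which held for 29.9% of all tested genes, and HMGS was higher in all 12, which held for 12.2%. Tested for any difference among the 5 stages, 5 of the 7 genes were called, against 75.0% of all tested genes, so the share was near the background. The mevalonate kinase (adjusted p = 0.0718) and MVD2 PH02Gene20453 (adjusted p = 0.0553) were not called by edgeR, and DESeq2 and limma called all 7. Over the 10 pairs of stages, 24 of 70 tests were called, and every one of them set a stem against the shoot.

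Against the shoot, 4 genes were called in the 0.5-year stem, 1 higher and 3 lower, where 53.8% of all tested genes were called, 26.5% higher and 27.3% lower. In the 1-year stem all 7 were called, 1 higher and 6 lower, against 56.4% of all genes, 27.8% higher and 28.6% lower. The 2-year stem gave the same counts for the 7 genes, against 63.6% of all genes, 29.4% higher and 34.2% lower. In the 3-year stem 6 were called, 1 higher and 5 lower, against 65.2% of all genes, 30.2% higher and 35.0% lower. HMGS was the gene that was higher each time. The median log2 change of the 7 genes was −0.61, −0.57, −0.70 and −0.61 in stems of rising age, beside −0.04, −0.04, −0.14 and −0.12 over all tested genes. The scale matters for the size of these changes: on log2(FPKM + 1) the median of all genes was itself lower than in the shoot by −0.28, −0.26, −0.47 and −0.47, so falls from the shoot are larger in FPKM, and the rise of HMGS smaller, than in the edgeR changes. No direction of the 7 genes against the shoot differed between the scales. The orders by level given below use mean FPKM. Some of their steps between stems, none of them called, ran the other way in edgeR.

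**Figure D1:**
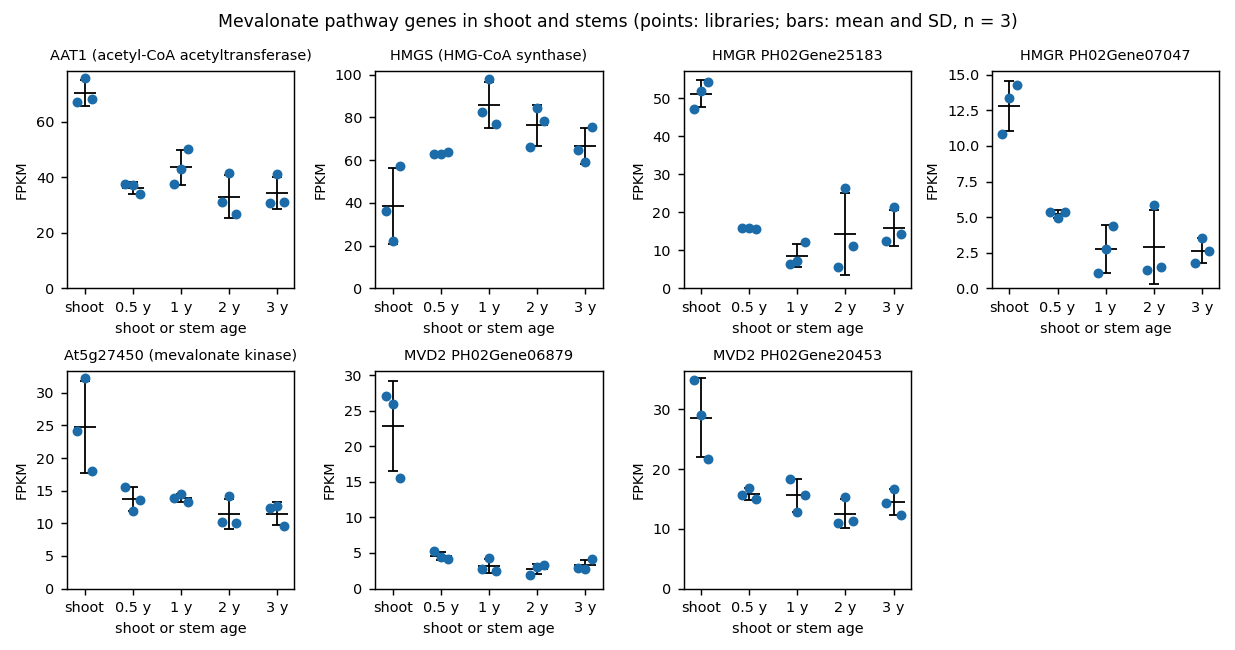
FPKM of the 7 genes in the shoot and in stems of 0.5, 1, 2 and 3 years, with 1 point per library and the mean and SD of the 3 libraries of a group as bars; each panel has its own axis from 0. HMGS is higher in all 12 stem libraries than in the shoot, and the other 6 genes are lower in all 12.

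AAT1 opens the pathway by joining acetyl-CoA units. It stood at 67.2, 75.9 and 68.3 FPKM in the 3 shoot libraries. The stems held 33.8 to 37.5 FPKM at 0.5 years, 37.5, 43.0 and 50.0 at 1 year, 26.6 to 41.5 at 2 years and 30.8 to 41.1 at 3 years. No stem library reached the lowest shoot library. The log2 change against the shoot was −0.61 ± 0.15 (SE, n = 3 libraries per group, edgeR adjusted p = 0.00424) at 0.5 years, −0.60 ± 0.15 (adjusted p = 0.00355) at 2 years and −0.53 ± 0.15 (adjusted p = 0.00752) at 3 years. At 1 year it was −0.40 ± 0.15 (adjusted p = 0.0398), the weakest of the 4. By level the order was shoot, then the stems of 1, 0.5, 3 and 2 years, in which only the first step was called. The 1-year call was lost without shoot replicate 2 (adjusted p = 0.0656), without 0.5-year replicate 1, 2 or 3 (0.0515, 0.0531 and 0.051) and without 1-year replicate 1 or 2 (0.116 and 0.0994). It was also lost with no FPKM filter (0.0634) and with the 0.5-year libraries summed to 1 sample (0.0846), which also ended the 0.5-year call (0.0944).

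HMGS makes HMG-CoA and was the gene of the 7 that rose. The shoot libraries were far apart, at 35.9, 22.3 and 57.4 FPKM. The stems gave 62.7 to 64.0 FPKM at 0.5 years, 82.4, 98.0 and 76.9 at 1 year, 65.9, 84.4 and 78.5 at 2 years and 64.7, 59.0 and 75.5 at 3 years. Even the lowest stem library lay above the highest shoot library, which was replicate 3. The log2 change was 1.09 ± 0.24 (SE, n = 3 libraries per group, edgeR adjusted p = 0.00177) at 0.5 years. It was 1.49 ± 0.25 (adjusted p = 0.000149) at 1 year, 1.51 ± 0.25 (adjusted p = 0.000104) at 2 years and 1.33 ± 0.24 (adjusted p = 0.000269) at 3 years. All 4 calls held under every alternative run. By level the order was the stems of 1, 2, 3 and 0.5 years and then the shoot, and only the last step was called.

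HMGR PH02Gene25183, a gene of the reductase that makes mevalonate, fell at every stem age. It stood at 47.3, 52.0 and 54.3 FPKM in the shoot and at 15.6 to 16.0 in the 0.5-year stem. The 1-year stem gave 6.45, 7.30 and 12.1 FPKM, the 2-year stem 5.51, 26.5 and 11.0, and the 3-year stem 12.4, 21.3 and 14.2. Shoot and stems did not overlap, while the stems of 0.5, 2 and 3 years overlapped one another. The log2 change against the shoot was −1.33 ± 0.38 (SE, n = 3 libraries per group, edgeR adjusted p = 0.00907) at 0.5 years, −2.28 ± 0.40 (adjusted p = 0.000227) at 1 year, −1.36 ± 0.38 (adjusted p = 0.00641) at 2 years and −1.18 ± 0.38 (adjusted p = 0.0142) at 3 years. Replicate 2 of the 2-year stem was high, and without it the 2-year change was −2.06 (adjusted p = 0.000122). The 3-year call was lost without 3-year replicate 1 (adjusted p = 0.0592), and the 0.5-year call with the 0.5-year libraries summed to 1 sample (0.135).

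The other reductase gene, HMGR PH02Gene07047, was lower in level than its partner in every growth stage library. It stood at 10.9, 13.4 and 14.3 FPKM in the shoot, and at 4.92 to 5.39 in the 0.5-year stem. The 1-year stem gave 1.07, 2.76 and 4.41 FPKM, the 2-year stem 1.29, 5.88 and 1.48, and the 3-year stem 1.78, 3.54 and 2.64. As for its partner, 2-year replicate 2 was the highest stem library, and without it the 2-year change was −2.65 (adjusted p = 0.000195). With it, the log2 change was −1.68 ± 0.49 (SE, n = 3 libraries per group, edgeR adjusted p = 0.00779) at 2 years, −1.94 ± 0.49 (adjusted p = 0.00381) at 1 year and −1.77 ± 0.49 (adjusted p = 0.00553) at 3 years. At 0.5 years the change of −0.93 ± 0.47 was not called (adjusted p = 0.109), though limma on log2(FPKM + 1) called it (0.0215), as did edgeR without 2-year replicate 2 (0.0339). The order by level was shoot, 0.5, 2, 1 and 3 years, and no step between neighbours was called. Both reductase genes carry the same description and may share reads that the counting split between them. Fractional expected counts also occurred for HMGS, the mevalonate kinase and the MVD2 genes. These may likewise share reads with other genes of their step.

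The mevalonate kinase At5g27450, which adds the first phosphate to mevalonate, stood at 24.1, 32.2 and 18.0 FPKM in the shoot. The stems were narrow in range, with 11.9 to 15.6 FPKM at 0.5 years, 13.3 to 14.4 at 1 year, 10.1 to 14.1 at 2 years and 9.52 to 12.6 at 3 years. Shoot and stems did not overlap, but shoot replicate 3 came close to them. The log2 change was −0.63 ± 0.22 (SE, n = 3 libraries per group, edgeR adjusted p = 0.0238) at 2 years and −0.61 ± 0.22 (adjusted p = 0.0261) at 3 years. The 2-year call was lost without shoot replicate 2 (0.0831) or 2-year replicate 1 (0.0792) or 3 (0.0698), and the 3-year call without shoot replicate 2 (0.0906) or 3-year replicate 3 (0.0917). At 1 year the change of −0.54 ± 0.22 passed by little (adjusted p = 0.0493) and was lost in 14 of the 15 fits that left out a library, the exception being shoot replicate 3, with adjusted p of 0.0502 to 0.168, the highest without shoot replicate 2, where the change was −0.36. It was also lost with no FPKM filter (0.0589) and with the 0.5-year libraries summed (0.0819). The 0.5-year change of −0.51 ± 0.22 was not called (adjusted p = 0.0639). On all libraries DESeq2 called it (0.0438), as did edgeR with RLE size factors (0.0479). Limma called it on log2(FPKM + 1) (0.00378) and on log2(FPKM + 0.1) (0.00433). Without shoot replicate 3 edgeR called the kinase at 0.5 years (adjusted p = 0.00223), and the changes at 1, 2 and 3 years were −0.86, −0.94 and −0.92.

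MVD2 PH02Gene06879, a decarboxylase gene of the last step, had the largest fall of the 7. It stood at 27.1, 26.0 and 15.6 FPKM in the shoot. The stems held 4.14 to 5.25 FPKM at 0.5 years, 2.45 to 4.32 at 1 year, 1.96 to 3.36 at 2 years and 2.82 to 4.15 at 3 years. Every stem library was below every shoot library, and shoot replicate 3 was again the lowest of its group. The log2 change was −1.97 ± 0.31 (SE, n = 3 libraries per group, edgeR adjusted p = 0.000125) at 0.5 years, −2.56 ± 0.32 (adjusted p = 1.38e-05) at 1 year, −2.55 ± 0.32 (adjusted p = 1.15e-05) at 2 years and −2.29 ± 0.32 (adjusted p = 2.34e-05) at 3 years. All 4 calls held under every alternative run, and in the order by level (shoot, 0.5, 3, 1 and 2 years) only the first step was called.

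Its partner MVD2 PH02Gene20453 fell less. It stood at 34.9, 29.1 and 21.8 FPKM in the shoot, against 14.9 to 16.9 at 0.5 years, 12.8 to 18.4 at 1 year, 11.0 to 15.4 at 2 years and 12.4 to 16.6 at 3 years. The ranges of shoot and stems did not overlap. The log2 change was −0.57 ± 0.22 (SE, n = 3 libraries per group, edgeR adjusted p = 0.0353) at 1 year and −0.70 ± 0.22 (adjusted p = 0.0109) at 2 years. The changes of −0.51 ± 0.21 at 0.5 years (adjusted p = 0.0588) and −0.49 ± 0.21 at 3 years (adjusted p = 0.0603) were not called. On all libraries limma called both on log2(FPKM + 1) (0.00285 and 0.00068) and on log2(FPKM + 0.1) (0.0033 and 0.000765). DESeq2 (0.035) and edgeR with RLE size factors (0.041) called only the change at 0.5 years. Without shoot replicate 3 edgeR called both (0.00297 and 0.00256), and the 1-year change was −0.86. Without 1-year replicate 1 edgeR called both too (0.0451 and 0.0466). The 1-year call was lost without shoot replicate 1 (0.102) or 1-year replicate 2 (0.141) or 3 (0.0889) and with the 0.5-year libraries summed (0.0707). In the order of shoot, 0.5, 1, 3 and 2 years no step between neighbours was called.

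Among the stems themselves edgeR called none of the 7 genes in any of the 6 pairs of ages. The background was 30.4% of all genes for 1 against 0.5 years, 40.4% for 2 against 0.5 years, 45.8% for 3 against 0.5 years, 1.5% for 2 against 1 year, 10% for 3 against 1 year and 0.00677% for 3 against 2 years. At an unadjusted p under 0.05 there was 1 gene each in the pairs of 1 and 0.5, 2 and 1, and 3 and 1 years and 0 in the other pairs. DESeq2 called 1 gene, in the pair of 3 and 1 years, and limma called 0. The gene with the widest swing was HMGR PH02Gene25183, whose log2 change was −0.94 ± 0.38 (SE, n = 3 libraries per group, edgeR adjusted p = 0.0773) from 0.5 to 1 year and 1.10 ± 0.39 (adjusted p = 0.0841) from 1 to 3 years. DESeq2 called the second of these (adjusted p = 0.0327). Without 2-year replicate 1 both were called by edgeR (0.0217 and 0.0288), and likewise without 2-year replicate 2 (0.0188 and 0.0233). Leaving out 2-year replicate 2 also gave a call for HMGR PH02Gene07047 from 0.5 to 1 year (adjusted p = 0.0452), where the change over all libraries was −1.01 ± 0.49 (adjusted p = 0.132). The mevalonate kinase moved least among the stems, with log2 changes between −0.11 and 0.02 over the 6 pairs.

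**Figure D2:**
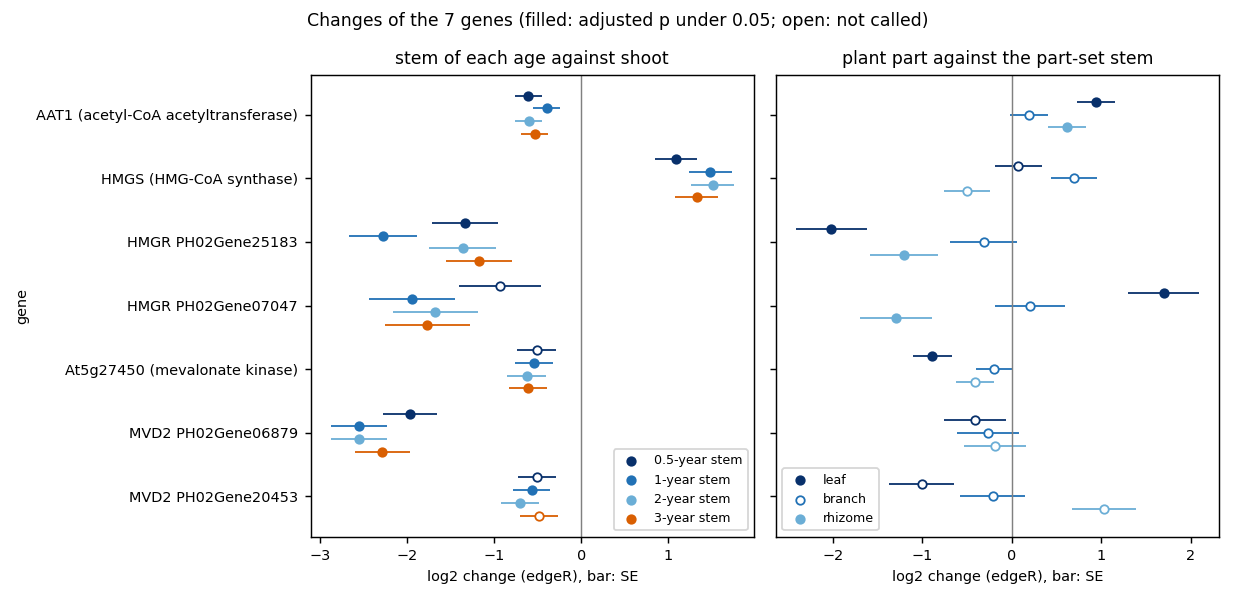
Log2 changes from edgeR (horizontal axis, bars are SE) of the 7 genes (vertical axis) in stems of each age against the shoot on the left and in 3 plant parts against the part-set stem on the right, with filled points for an adjusted p under 0.05. HMGS lies right of 0 at every stem age and the other genes left of it, while in the leaf the HMGR genes lie on opposite sides of 0.

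In the plant parts, genes of the same step differed in their order: of the HMGR genes one was higher and the other lower in the leaf than in the part-set stem. Tested for any difference among the 4 parts, 6 of the 7 genes were called, against 56.9% of all tested genes, and MVD2 PH02Gene06879 was not (adjusted p = 0.731). The call of the mevalonate kinase (adjusted p = 0.0214) was lost without leaf replicate 1 or 2 (0.0824 and 0.0858), without part-set stem replicate 2 or 3 (0.0517 and 0.0598) and with no FPKM filter (0.052). Over the 6 pairs of parts, 16 of 42 tests were called. Leaf against the part-set stem gave 4 calls, 2 higher and 2 lower, where 36.6% of all genes were called. For leaf against branch it was also 2 higher and 2 lower, against 34.7%, and for leaf against rhizome 1 higher and 1 lower, against 45.8%. Rhizome against the part-set stem gave 1 higher and 2 lower, against 29.6%, and rhizome against branch the same counts, against 28.1%. Branch against the part-set stem gave 0 calls by edgeR, DESeq2 and limma, where edgeR called 0.79% of all genes, and 1 of the 7 at an unadjusted p under 0.05.

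**Figure D3:**
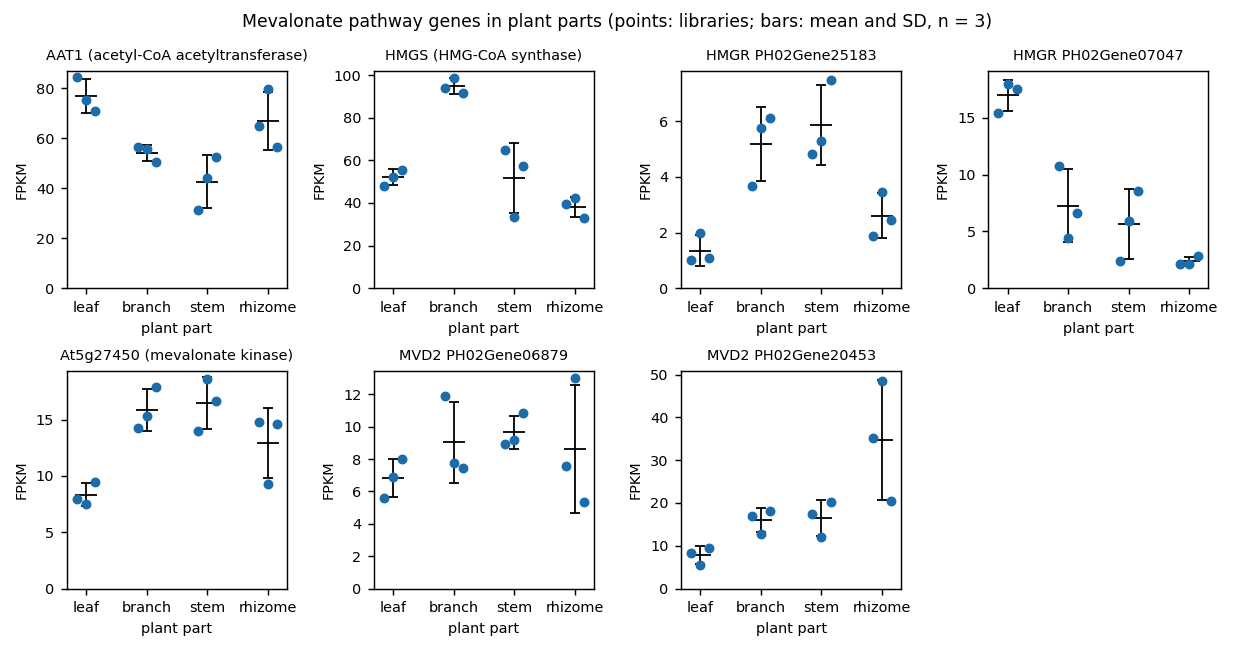
FPKM of the 7 genes in leaf, branch, part-set stem and rhizome, with 1 point per library and the mean and SD of the 3 libraries of a group as bars; each panel has its own axis from 0. HMGR PH02Gene07047 is highest and HMGR PH02Gene25183 lowest on average in the leaf, and MVD2 PH02Gene20453 is highest in the rhizome.

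AAT1 was highest in the leaf, at 84.3, 75.2 and 70.9 FPKM, and the rhizome gave 64.9, 79.6 and 56.7. The branch held 50.5 to 56.4 FPKM and the part-set stem 31.3, 44.2 and 52.3. Leaf and rhizome did not overlap with the part-set stem, while branch and part-set stem did. The leaf was higher than the part-set stem by 0.94 ± 0.21 on the log2 scale (SE, n = 3 libraries per group, edgeR adjusted p = 0.00545) and higher than the branch by 0.75 ± 0.21 (adjusted p = 0.0187). The latter call was lost without branch replicate 1 (0.064) or 3 (0.0616) or leaf replicate 1 (0.0587) and in limma on log2(FPKM + 1) (change 0.50, adjusted p = 0.0714) and on log2(FPKM + 0.1) (0.0729). The rhizome was higher than the part-set stem by 0.62 ± 0.21 (adjusted p = 0.0469), a call that held when rhizome replicate 3 or part-set stem replicate 3 was left out. It was lost without any 1 of the other 10 libraries (0.0589 to 0.143, the highest without part-set stem replicate 1), with RLE size factors (0.0554) and with no FPKM filter (0.0767). In the order of leaf, rhizome, branch and part-set stem no neighbouring pair was called.

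HMGS was highest in the branch, where it stood at 94.0, 98.8 and 91.3 FPKM. The leaf gave 48.2 to 55.6 FPKM, the part-set stem 65.0, 33.5 and 57.1, and the rhizome 33.0 to 42.3. The branch did not overlap with any other part, while the part-set stem overlapped with leaf and rhizome. Of the 6 pairs only rhizome against branch was called, at −1.20 ± 0.26 on the log2 scale (SE, n = 3 libraries per group, edgeR adjusted p = 0.00733), and this held under every alternative run. The branch was 1.83-fold the mean of the part-set stem in FPKM, but the log2 change of 0.70 ± 0.26 was not called (adjusted p = 0.222), nor was leaf against branch, at −0.62 ± 0.26 (0.0848). Limma on log2(FPKM + 1) called the latter (0.00995), as did edgeR without part-set stem replicate 2 (0.0262). Leaf against rhizome, at 0.58 ± 0.26, was not called by edgeR either (adjusted p = 0.0904). DESeq2 called it (0.0467), as did edgeR without part-set stem replicate 2 (0.0284).

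HMGR PH02Gene25183 was low throughout the plant parts. The leaf held 0.996, 1.98 and 1.08 FPKM, from 24 to 53.6 expected counts per library. The rhizome gave 1.87, 3.46 and 2.46 FPKM, the branch 3.67, 5.76 and 6.12, and the part-set stem 4.80, 5.28 and 7.48. The leaf lay below branch and part-set stem without overlap and overlapped with the rhizome in 1 library. It was lower than the part-set stem by −2.02 ± 0.39 on the log2 scale (SE, n = 3 libraries per group, edgeR adjusted p = 0.00236) and than the branch by −1.70 ± 0.39 (adjusted p = 0.00628), and both calls held under every alternative run. The rhizome was lower than the part-set stem, at −1.21 ± 0.38 (adjusted p = 0.0348), a call lost without part-set stem replicate 1, 2 or 3 (0.0507, 0.0556 and 0.101) or rhizome replicate 1 or 3 (0.128 and 0.0687). In the order of part-set stem, branch, rhizome and leaf no neighbouring pair was called.

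HMGR PH02Gene07047, in contrast, was highest in the leaf. The leaf stood at 15.4, 18.0 and 17.5 FPKM, from 294 to 384 expected counts. The branch gave 10.8, 4.41 and 6.59 FPKM, the part-set stem 2.41, 5.88 and 8.55, and the rhizome 2.09, 2.14 and 2.83. Leaf libraries were above all others, and the rhizome overlapped with the lowest part-set stem library. The leaf was higher than the rhizome by 2.99 ± 0.42 on the log2 scale (SE, n = 3 libraries per group, edgeR adjusted p = 0.000195), than the part-set stem by 1.70 ± 0.40 (adjusted p = 0.00656) and than the branch by 1.49 ± 0.39 (adjusted p = 0.0131). The call against the branch was lost without branch replicate 2 (0.0522), and the other leaf calls held under every alternative run.

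In the rhizome HMGR PH02Gene07047 was lower than in the part-set stem, at −1.30 ± 0.41 (SE, n = 3 libraries per group, edgeR adjusted p = 0.0338), and lower than in the branch, at −1.50 ± 0.41 (adjusted p = 0.0191). The call against the part-set stem was lost in limma on log2(FPKM + 1) (0.097) and on log2(FPKM + 0.1) (0.0919), and without part-set stem replicate 2 (0.0725) or 3 (0.137, with a change of −0.84) or rhizome replicate 1 (0.11) or 2 (0.0649). The call against the branch was lost without branch replicate 1 (0.0525) or rhizome replicate 1 (0.073).

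The mevalonate kinase was lowest in the leaf, at 7.98, 7.49 and 9.46 FPKM. The rhizome gave 14.8, 9.31 and 14.6 FPKM, the branch 14.3 to 17.9 and the part-set stem 14.0 to 18.6. The leaf did not overlap with branch or part-set stem, and it met the rhizome at rhizome replicate 2. It was lower than the part-set stem by −0.89 ± 0.21 on the log2 scale (SE, n = 3 libraries per group, edgeR adjusted p = 0.00752), under every alternative run. The change against the branch was −0.69 ± 0.21 (adjusted p = 0.0268), a call lost with no FPKM filter (0.0599) and without branch replicate 2 (0.0566) or 3 (0.0972) or leaf replicate 1 (0.0943) or 2 (0.0957). Against the rhizome it was −0.48 ± 0.21 (adjusted p = 0.0868), and without rhizome replicate 2 this was called (0.0281). In the order of part-set stem, branch, rhizome and leaf no neighbouring pair was called. The other kinase gene, PH02Gene37510, stood at 21.6 FPKM in rhizome replicate 2. Both kinase genes together summed to 11.3 to 13.4 FPKM in the leaf and 21.8 to 30.9 in the rhizome, without overlap. These sums were not tested.

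The MVD2 genes were both lower in the stems than in the shoot, by unequal amounts, and in the plant parts only PH02Gene20453 had calls. For both genes every leaf library was below every part-set stem library. MVD2 PH02Gene06879 stood at 5.61 to 7.98 FPKM in the leaf, 7.44 to 11.9 in the branch, 8.93 to 10.8 in the part-set stem and 5.34, 7.55 and 13.0 in the rhizome. Its log2 changes over the 6 pairs lay between −0.41 and 0.08, and none was called. MVD2 PH02Gene20453 stood at 35.2, 48.4 and 20.3 FPKM in the rhizome, at 8.36, 5.53 and 9.48 in the leaf, at 12.8 to 18.2 in the branch and at 11.9, 17.4 and 20.2 in the part-set stem. Its lowest rhizome library was just above its highest part-set stem library, and every leaf library was below every other.

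MVD2 PH02Gene20453 was lower in the leaf than in the rhizome by −2.04 ± 0.37 on the log2 scale (SE, n = 3 libraries per group, edgeR adjusted p = 0.00112), under every alternative run. The rhizome was higher than the branch by 1.25 ± 0.36 (adjusted p = 0.0256), a call lost without branch replicate 1, 2 or 3 (0.0837, 0.094 and 0.0515) or rhizome replicate 1 or 2 (0.0583 and 0.0782). Against the part-set stem the leaf was at −1.01 ± 0.37 (adjusted p = 0.05) and the rhizome at 1.03 ± 0.36 (adjusted p = 0.0507), neither under the threshold. DESeq2 called both (0.0442 and 0.034). Leaving out rhizome replicate 3, the lowest, gave a call for both (0.0198 and 0.00979). The first was also called without rhizome replicate 2 (0.0206) or part-set stem replicate 2 (0.0329). In the order of rhizome, part-set stem, branch and leaf no neighbouring pair was called.

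Ratios of the paired genes within a library do not depend on its scaling, though they depend on how any shared reads were split. For HMGR, PH02Gene25183 was 3.81 to 4.36 times PH02Gene07047 in the shoot, 2.90 to 3.24 times at 0.5 years, 2.65 to 6.03 at 1 year, 4.28 to 7.46 at 2 years and 5.39 to 6.95 at 3 years. In the plant part set the same ratio was 0.0616 to 0.110 in the leaf, 0.341 to 1.31 in the branch, 0.874 to 1.99 in the part-set stem and 0.868 to 1.62 in the rhizome. The leaf stood apart from all other groups, and the part-set stem did not reach the ratio of any growth stage stem, though the tables were made separately and this was not tested. For MVD2, PH02Gene20453 was 1.12 to 1.40 times PH02Gene06879 in the shoot and 2.96 to 6.70 times in the stems of the growth stage set, without overlap. It was 0.804 to 1.49 in the leaf, 1.42 to 2.45 in the branch, no more than 1.94 in the part-set stem and 3.71 to 4.67 in the rhizome, which lay above the other parts.

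**Figure D4:**
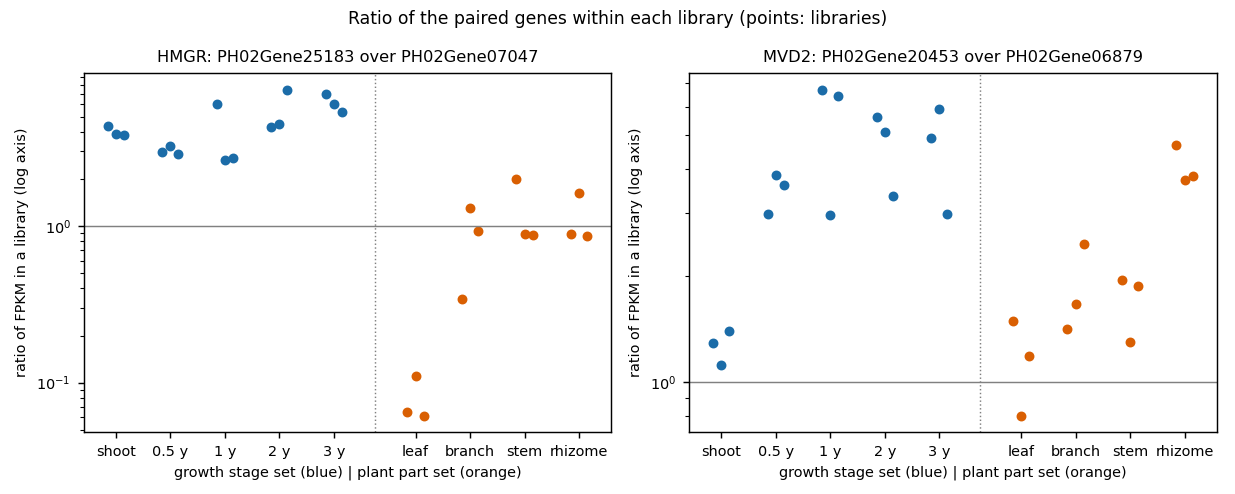
Ratio of FPKM between paired genes within each library (log axis, 1 point per library), HMGR on the left and MVD2 on the right, with the growth stage set in blue and the plant part set in orange. The HMGR ratio is above 1 in all growth stage libraries and near 0.1 or below in the leaf, and the MVD2 ratio is at least 2.96 in all growth stage stem libraries and at least 3.71 in the rhizome.

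Of the other genes of the pathway, 30 stood in the growth stage table, of which 14 passed the filter, and 33 in the plant part table, of which 15 did. Against the shoot, 7, 7, 9 and 7 of the 14 were called in stems of 0.5, 1, 2 and 3 years, with 4, 4, 5 and 4 of them higher, beside 53.8%, 56.4%, 63.6% and 65.2% of all tested genes. Among the stems 6, 6 and 8 of the 14 were called for 1, 2 and 3 years against 0.5 years, beside 30.4%, 40.4% and 45.8% of all genes. These shares were near the background. Of the remaining pairs of ages, 3 against 1 year gave 1 call and the others 0 by edgeR, where at an unadjusted p under 0.05 there were 2 for 2 against 1 year and 1 for 3 against 2 years, DESeq2 called 0 in both, and limma 1 and 0. In the parts, 3 of the 15 were called for leaf against part-set stem (36.6% of all genes), 6 for leaf against branch (34.7%), 7 for leaf against rhizome (45.8%), 4 for rhizome against part-set stem (29.6%) and 2 for rhizome against branch (28.1%). Branch against part-set stem gave 0 calls by edgeR, DESeq2 and limma (0.79% of all genes by edgeR), with 1 at an unadjusted p under 0.05.

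At the reductase step 4 genes, the pair above and 2 others, reached a mean of 5 FPKM in at least 1 group. Summed over all its genes the step stood at 93.0 ± 5.52 FPKM in the shoot (SD, n = 3 libraries, as for the sums that follow), 45.6 ± 0.803 at 0.5 years, 38.0 ± 4.30 at 1 year, 36.5 ± 13.6 at 2 years and 37.4 ± 6.82 at 3 years. PH02Gene25183 made up 53.6% to 57.0% of it in the shoot, 34.3% to 35.7% at 0.5 years, 19.1% to 28.4% at 1 year, 20.8% to 50.9% at 2 years and 36.4% to 47.1% at 3 years. Over the same groups HMG3 PH02Gene04633, another reductase gene, made up 11.5% ± 1.87, 37.4% ± 0.242, 43.2% ± 6.24, 29.8% ± 9.05 and 24.4% ± 4.67 (SD, n = 3 libraries), so that its mean share was above that of PH02Gene25183 at 0.5 and 1 year and below it in the other groups. Its level was 10.7 ± 1.52 FPKM in the shoot, 17.0 ± 0.404 at 0.5 years and 16.2 ± 0.618 at 1 year. At 2 years it was 10.1 ± 0.920 FPKM, and the 3-year libraries held 7.27 to 10.1. HMG3 rose against the shoot at 0.5 years, by 1.02 ± 0.18 on the log2 scale (SE, n = 3 libraries per group, edgeR adjusted p = 0.000248), and at 1 year, by 0.90 ± 0.18 (adjusted p = 0.000542). The edgeR change at 2 years, 0.42 ± 0.18, passed by little (adjusted p = 0.0497), and that at 3 years was not called (0.26 ± 0.18, adjusted p = 0.211). At both ages the scales differed in direction, as mean FPKM was below that of the shoot. The ranges of shoot (8.95 to 11.8 FPKM) and 2-year stem (9.15 to 11.0) overlapped, so a rise of HMG3 at 2 years depends on the scale. Among the stems it was lower at 3 years than at 0.5 years, by −0.76 ± 0.18 (adjusted p = 0.0028), and than at 1 year, by −0.65 ± 0.18 (adjusted p = 0.0339), and lower at 2 than at 0.5 years, by −0.60 ± 0.17 (adjusted p = 0.0137). HMGR PH02Gene12621 fell at 0.5 years, by −1.74 ± 0.19 (adjusted p = 6.67e-06), and was higher at 1 year than at 0.5 years, by 0.67 ± 0.19 (adjusted p = 0.0177).

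In the plant parts the reductase sum was 27.6 ± 4.21 FPKM for leaf, 30.5 ± 2.84 for branch, 23.5 ± 7.01 for part-set stem and 24.6 ± 2.75 for rhizome (SD, n = 3 libraries), and the ranges of all 4 parts overlapped. PH02Gene07047 made up 56.3% to 65.6% of the sum in the leaf and 8.91% to 10.2% in the rhizome. PH02Gene12621 made up 7.41% to 13.8% in the leaf and 40.2% to 51.9% in the rhizome, where it was higher than in the part-set stem by 1.31 ± 0.33 on the log2 scale (SE, n = 3 libraries per group, edgeR adjusted p = 0.0131). HMG3 was lower in the leaf than in the rhizome, by −2.07 ± 0.63 (adjusted p = 0.019).

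**Figure D5:**
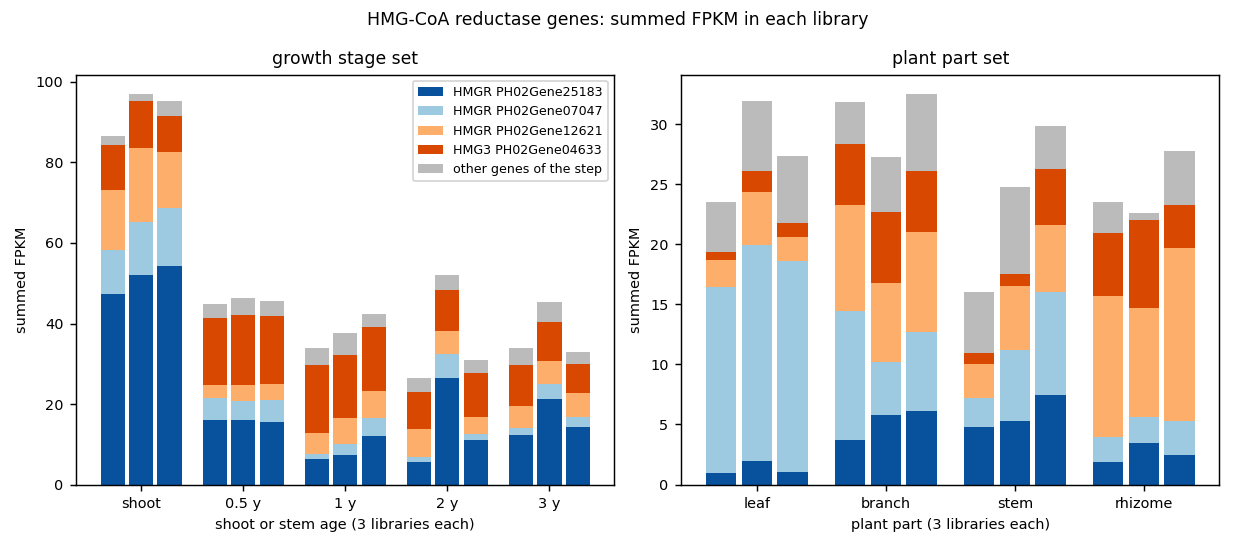
Summed FPKM of all HMG-CoA reductase genes in each library (stacked bars from 0, 3 libraries per group), split into the 4 genes that reached a mean of 5 FPKM in at least 1 group and the rest, for the growth stage set on the left and the plant part set on the right; the axes differ. The sum is 86.7 to 97.0 in the shoot and 26.5 to 52.0 in the stems, and PH02Gene07047 is the largest part of it in the leaf.

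Summed over all its genes, the synthase step was 98.6 to 134 FPKM in the shoot, 127 to 137 at 0.5 years, 137 to 155 at 1 year, 129.7 to 143 at 2 years and 115 to 134 at 3 years (ranges over 3 libraries), and only the 1-year range lay wholly above that of the shoot. HMGS PH02Gene21584 made up 22.6% to 42.9% of it in the shoot and 45.8% to 63.1% in the stems. HMGS PH02Gene16160 stood at 30.1 ± 2.01 FPKM in the shoot and 28.4 ± 2.50 at 0.5 years and then at 10.5 ± 0.323, 8.42 ± 0.532 and 8.21 ± 2.06. It fell from 0.5 years to 1 year by −1.48 ± 0.17 on the log2 scale (SE, n = 3 libraries per group, edgeR adjusted p = 6.67e-05). HMGS PH02Gene37687 moved the other way over the same step, from 23.0 ± 1.25 to 43.5 ± 1.49 FPKM, a log2 change of 0.87 ± 0.15 (adjusted p = 0.000794). In the leaf both were lower than in the part-set stem, by −1.77 ± 0.25 (adjusted p = 0.000294) and −1.50 ± 0.22 (adjusted p = 0.0004), and HMGS PH02Gene00923 was lower in the rhizome than in the part-set stem, by −2.03 ± 0.40 (adjusted p = 0.00447). MSTRG.42789, an assembled gene with the HMGS symbol in the growth stage table, peaked at 11.7 ± 2.72 FPKM at 0.5 years from 0.730 ± 0.850 in the shoot, a log2 change of 4.36 ± 0.64 (adjusted p = 7.21e-05).

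At the first step, the acetyltransferase gene At5g47720 (PH02Gene19660) was highest in the leaf, at 47.1 ± 9.07 FPKM (SD, n = 3 libraries), and at 2.40 ± 0.355 in the rhizome. The log2 change between these parts was 4.42 ± 0.29 (SE, n = 3 libraries per group, edgeR adjusted p = 8.69e-07), while AAT1 was not called between them (0.32 ± 0.21, adjusted p = 0.238). A further gene of that symbol, PH02Gene13285, was called at 1 and 2 years against 0.5 years (−0.57 ± 0.16, adjusted p = 0.0146, and −0.62 ± 0.16, adjusted p = 0.00671). Phosphomevalonate kinase (PMK, PH02Gene32702), which stands between mevalonate kinase and MVD2 in the pathway, fell against the shoot at every stem age. It stood at 12.4, 12.6 and 13.4 FPKM in the shoot and at 4.23 to 4.64 at 3 years, a log2 change of −1.03 ± 0.16 (adjusted p = 7.84e-05). Summed over all its genes, this step was 12.4 to 13.4 FPKM in the shoot and 5.3 to 7.6 at 3 years. At 3 years PH02Gene32702 made up 55.6% to 87.1% of the sum. PH02Gene32702 was the only named gene of the last 3 steps with a call among the stems, at 3 against 0.5 years (−0.61 ± 0.16, adjusted p = 0.00791). The second mevalonate kinase gene, PH02Gene37510, was lower in the leaf than in the rhizome (−1.72 ± 0.38, adjusted p = 0.00376) and lower at 2 years than in the shoot (−0.66 ± 0.27, adjusted p = 0.0458).

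Among the genes that use the pathway's product, the isomerase and farnesyl diphosphate synthase stand next in line. Of 27 tested product-use genes in the growth stage set, 13, 18, 18 and 18 were called against the shoot in stems of 0.5, 1, 2 and 3 years, with 7, 13, 14 and 14 of them lower. Of all tested genes 53.8%, 56.4%, 63.6% and 65.2% were called, so the total counts were near the background. The counts lower stand beside 27.3%, 28.6%, 34.2% and 35.0% of all tested genes called lower, and were a larger share at 1, 2 and 3 years. The median log2 change of the 27 genes was −0.12, −0.88, −0.84 and −1.13, beside −0.04, −0.04, −0.14 and −0.12 over all tested genes. The difference in share was not tested. Farnesyl diphosphate synthase FPS (PH02Gene06534), the entry to sesquiterpenes and sterols, stood at 43.2 ± 23.8 FPKM in the shoot (SD, n = 3 libraries) and at 277 ± 9.38, 499.8 ± 53.1, 437 ± 153 and 457 ± 32.1 in stems of rising age. Its log2 change against the shoot was 3.05 ± 0.37 (SE, n = 3 libraries per group, edgeR adjusted p = 1.36e-05) at 0.5 years and 3.94 ± 0.38 (adjusted p = 9.34e-07) at 3 years. Isopentenyl diphosphate isomerase IPI1 (PH02Gene44781) stood at 34.3 ± 6.26 FPKM in the shoot, 42.7 ± 2.06 at 0.5 years and 4.48 ± 2.10 at 3 years, and fell from 0.5 to 3 years by −3.11 ± 0.32 (adjusted p = 1.04e-05). Genes of the sterol branch differed in direction: squalene synthase SS1 (PH02Gene15780) was lower than in the shoot at every stem age (at 0.5 years −1.30 ± 0.19, adjusted p = 8.33e-05), and the cycloartenol synthase gene Os02g0139700 (PH02Gene14338) was higher at 1, 2 and 3 years (at 3 years 1.02 ± 0.26, adjusted p = 0.00358). The shoot range of the latter (53.8 to 133 FPKM) overlapped with those at 1, 2 and 3 years. Sterol methyltransferase Smt1-1 (MSTRG.2452) was lower than in the shoot at 1, 2 and 3 years (at 3 years −3.45 ± 0.25, adjusted p = 6.89e-08). Obtusifoliol demethylase CYP51 (PH02Gene32373) was lower at 2 and 3 years (at 3 years −1.54 ± 0.50, adjusted p = 0.0147). Squalene epoxidase SQE1 (PH02Gene18862) was not called against the shoot at any age. The SQE1 and SS1 genes most abundant in the plant parts were others. SQE1 PH02Gene19154 was lower than in the shoot at 0.5 years (log2 change −0.555, adjusted p = 0.0044). SS1 PH02Gene42720 was lower at 1, 2 and 3 years but not called at 0.5 years (−0.12 ± 0.31, adjusted p = 0.763). In the rhizome FPS was lower than in the part-set stem, by −1.83 ± 0.22 (adjusted p = 0.000254), and IPI1 higher, by 1.63 ± 0.37 (adjusted p = 0.00867).

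Across the 15 growth stage libraries the log2(FPKM + 1) of the 6 genes that were lower in stems correlated with one another at Pearson r of 0.74 to 0.92, and HMGS with each of them at −0.81 to −0.67. Across the 12 plant part libraries the pairs ranged from −0.80 to 0.75, the lowest between HMGR PH02Gene07047 and MVD2 PH02Gene20453 and the highest between HMGR PH02Gene25183 and the mevalonate kinase. These values describe libraries that share group and depth, and carry no test. Genes most like a member were ranked by the smaller of 2 correlations (over 15 and 12 libraries) among 12771 genes. For MVD2 PH02Gene20453 the first was the mitochondrial ATP synthase subunit gene At2g21870 (0.94 and 0.96). TON1B (0.94 and 0.96) and Os01g0258700 (0.93 and 0.94) came next. For AAT1 the first was the chloride channel gene CLC-G (0.93 and 0.92). The ATP-citrate synthase gene ACLB-1 (0.92 and 0.91) and CDC42BPA (0.90 and 0.90) came next. ATP-citrate synthase is the enzyme that supplies cytosolic acetyl-CoA in plants, and a tie to AAT1 was not tested. For the mevalonate kinase the first was the proline tRNA ligase gene At3g62120 (0.92 and 0.91), and for HMGR PH02Gene07047 the subtilisin-like protease gene SBT3.9 (0.90 and 0.92). HMGS, HMGR PH02Gene25183 and MVD2 PH02Gene06879 had no gene above 0.85 in both sets.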

How the data were processed

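RNA sequencing values came as 1 deposited file holding a table for the growth stage set and one for the plant part set. Expected counts per gene and FPKM per gene were used as the authors deposited them, per the file headers. Per the submitters' processing notes the tools were HISAT2, StringTie 1.3.1 and RSEM, with no role or order given. No genome build is named: it was not given in the sources used here. MSTRG identifiers are specific to a table.

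Expected counts were rounded and tested with edgeR 4.0.16 (quasi-likelihood, TMM) in R 4.3.3. Each set had 1 fit over all its libraries, with a term for group alone, and the sets were never tested against each other. Tested were 29538 and 29630 genes, those reaching an FPKM of 1 in 3 libraries or more, with Benjamini-Hochberg adjustment over all of them within each comparison. Tests were two-sided and were checked on simulated counts. Alternatives were RLE size factors, DESeq2 1.42.0, limma 3.58.1 on log2(FPKM + 1) and log2(FPKM + 0.1), no FPKM filter, a replicate block, each library left out, and the 0.5-year libraries summed to 1 sample. Each sum or share of a pathway step was taken over the FPKM of all its genes by KEGG number. Other genes are named where their mean FPKM was 5 or more in at least 1 group, and for product use the most abundant gene of each step. The 7 genes, the lists and these rules were chosen with earlier results of these data known.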

Additional observations from a re-analysis of the deposited data

How the results depend on the processing

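No value reversed its direction among the 40 called differences of a gene between a pair of groups or the 15 others with an adjusted p under 0.15. Of the 40 calls, 24 held under every alternative run and 16 were lost under at least 1. All 15 near misses gained a call under at least 1. The number of genes called in the 0.5-year stem against the shoot (4) was 7 with limma on log2(FPKM + 1) and 2 with the 0.5-year libraries summed to 1 sample, where that single sample is taken to be as variable as the other stages. That setting gave 4 in the 1-year stem against the shoot (7). DESeq2 gave 1 for 3 years against 1 year (0). The replicate block gave 1 for rhizome against part-set stem (3), with adjusted p of 0.073 for AAT1 and 0.0559 for HMGR PH02Gene07047. The labels do not say what replicate numbers share. Deviations from group means correlated between same-numbered libraries at r of −0.149 to 0.157 over the stages (4 of 30 pairs over 0.1) and −0.148 to 0.162 over the parts (4 of 18), and between other pairs at −0.224 to 0.253 (1 of 60) and −0.215 to 0.158 (7 of 36). Of the libraries, 11 of 15 and 6 of 12 correlated best with their own number. The median r of same-numbered and other pairs was 0.025 and −0.009 over the stages, and 0.003 and −0.005 over the parts. These values come from the data and not the design, and a pairing by number was not tested. Leaving out 1 library at a time, the counts ranged from 4 to 6 at 0.5 years against shoot, 4 to 7 at 1 year, 6 to 7 at 2 years and 5 to 7 at 3 years. Among the stems they ranged from 0 to 2 for 1 against 0.5 years, 0 to 1 for 2 against 0.5 years and for 3 against 1 year. In the parts they ranged from 0 to 3 for rhizome against part-set stem, 2 to 5 for leaf against branch, 2 to 3 for leaf against rhizome, 1 to 3 for rhizome against branch and 4 to 5 for leaf against part-set stem. Of all genes called against the shoot, 49.2%, 49.3%, 46.2% and 46.3% were higher at 0.5, 1, 2 and 3 years by edgeR, and 34.8%, 36.5%, 31.2% and 32.0% by limma on log2(FPKM + 1), on which scale AAT1 changed by −0.94, −0.69, −1.09 and −1.03 and HMGS at 3 years by 0.86. The cause was not tested. With 3 libraries per group, a p above the threshold does not show that levels were alike.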
